A study of Mus musculus with 4 samples.

Results

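Levels of 10 ubiquitin ligase genes known in striated muscle were read in pressure-loaded mouse hearts that lack or keep one of them, MAFbx (atrogin-1, encoded by Fbxo32). The genes were Fbxo32, Trim63, Trim54, Trim55, Fbxo40, Fbxo30, Fbxo31, Asb2, Stub1 and Mdm2. Each was taken from the probe sets that the platform annotation gives a single gene symbol, and the brightest on average was used for a gene with several. All 10 genes were measured, among 14914 genes tested. Knockout hearts numbered 3 (MAFbx knockouts 1, 2 and 3), and they were set against 1 wild type heart (wild type 1). All 4 hearts came from mice 1 week after TAC (transverse aortic constriction), in which the aorta is tied to a smaller bore so that the left ventricle must pump against higher pressure. Strain, sex, age, the construction of the MAFbx allele and the cells in which it is deleted are unstated in the labels. No heart without TAC was analysed here, so the values compare genotypes under load and not load with rest. The labels number the hearts and do not say that each came from a separate animal, so the spread between knockouts 1 and 2 may be partly technical. Knockout 3 differed from both on sex-linked transcripts, as given below, so it came from another animal than they did.

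A ubiquitin ligase (E3) picks the protein that is to be tagged with ubiquitin, most often for breakdown by the proteasome. MAFbx binds substrates for an SCF complex, in which its F-box docks on the adaptor Skp1 and the scaffold Cul1, and MuRF1, encoded by Trim63, is a RING-finger ligase of the sarcomere. Both genes are known for their rise in wasting skeletal muscle under FoxO transcription factors. In the heart MAFbx has been tied to calcineurin and FoxO factors, and MuRF1 to breakdown of sarcomere proteins.

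The arrays divided on sex-linked transcripts otherwise than by genotype. Xist, which is made from the inactive X chromosome, read 9.18, 9.52 and 3.20 in knockouts 1, 2 and 3, against 4.13 in wild type 1 (RMA level on the log2 scale, as all levels below). The Y-linked gene Eif2s3y read 3.31, 3.64 and 8.49 in the knockouts, against 8.57 in wild type 1. Knockout 3 was therefore the only knockout array with the wild type array's pattern, and its difference from wild type 1 is given beside the whole comparison for each ligase. Genotypes were compared with limma over all genes tested, with Benjamini-Hochberg adjustment, and every log2 fold change is knockout minus wild type. Wild type 1 has no spread of its own and was assumed to vary like the knockout arrays. With 1 array against 3, an exact permutation test cannot give a p below 0.25.

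The tissue was checked on marker lists. All 9 cardiomyocyte markers passed the filter on dim probe sets, and so did 8 of 10 skeletal muscle fibre markers. The exceptions were the fast skeletal myosin genes Myh1 and Myh4, which lay under the filter level of 4.71 on every array. Passing this filter is not a call of presence. In wild type 1 the 8 ran from Myh2 and Myog just over it, at 4.74 and 4.78, up to Tnni2 at 6.39 and Tnnt3 at 6.95. The 9 cardiomyocyte markers had a summed linear level of 82407 in wild type 1. The summed linear level of the 10 skeletal markers was 431, 438 and 509 in knockouts 1, 2 and 3, against 471 in wild type 1. Of the 8, 0 had an unadjusted limma p under 0.05, beside 5.73% of all genes tested.

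Fbxo32 (probe set 10428796) was the ligase gene with the lowest knockout reading relative to wild type. It read 5.65, 5.61 and 5.56 in knockouts 1, 2 and 3, against 7.54 in wild type 1. The knockout values lay within 0.1 of each other and far from the wild type value. The knockouts averaged 5.61 ± 0.05 (SD, n = 3), which is 3.82-fold under wild type 1 (log2 fold change -1.93, SE 0.17, 95% interval -2.34 to -1.53). Among all genes tested it had the 2nd smallest limma p, and its adjusted p of 0.0529 did not pass the threshold of 0.05. Where the probe set lies relative to the deleted stretch was not analysed here, and the knockout readings stayed above the filter level of 4.71.

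The call of Fbxo32 turned with the variance model and its size did not. With a prior variance that follows intensity the limma adjusted p was 0.0325, and with a robust prior it was 0.0194. The log2 fold change lay between -1.98 and -1.90 in every alternative that could measure it, and knockout 3 alone differed from wild type 1 by -1.98. Without knockout 1, 2 or 3 the adjusted p was 0.997, 0.995 and 0.334.

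**Figure D1:**
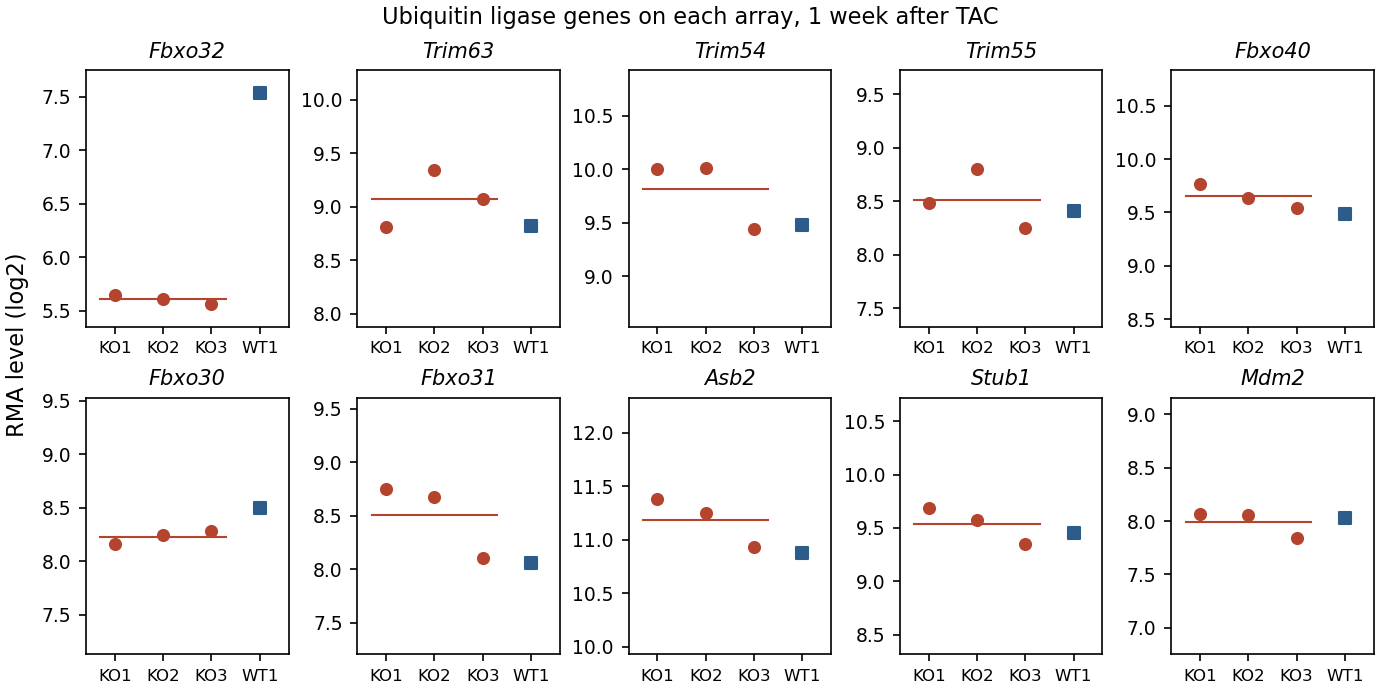
RMA levels (log2, vertical axes) of the 10 ligase genes on each array, knockouts 1 to 3 as red circles with their mean as a line, wild type 1 as a blue square. Every panel spans the same number of log2 units. Fbxo32 read 5.56 to 5.65 in the knockouts, against 7.54 in wild type 1, and in no other panel is the wild type value so far from the knockouts.

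None of the 9 other ligases passed the limma test, where the adjusted p ran from 0.923 to 0.996. Over all genes tested 0.00671% were called at that threshold, a single gene, Hmox1. At an unadjusted limma p under 0.05, where 5.73% of all genes lay, Fbxo32 was the 1 ligase gene of 10. It was lower, like 4.05% of all genes, and 0 ligases were higher, beside 1.68% of all genes. The 9 other ligases had a median log2 fold change of 0.16, beside 0.00 over all genes tested, and ranged from -0.27 (Fbxo30) to 0.45 (Fbxo31). All 9 of their 95% intervals included 0. The widest bound was that of Fbxo31, whose interval reached a level 2.14-fold higher in the knockouts. For that gene a difference of that order cannot be told from none with these arrays. The upper bounds of the others ran from 1.10-fold (Fbxo30) to 1.94-fold (Trim54).

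**Figure D2:**
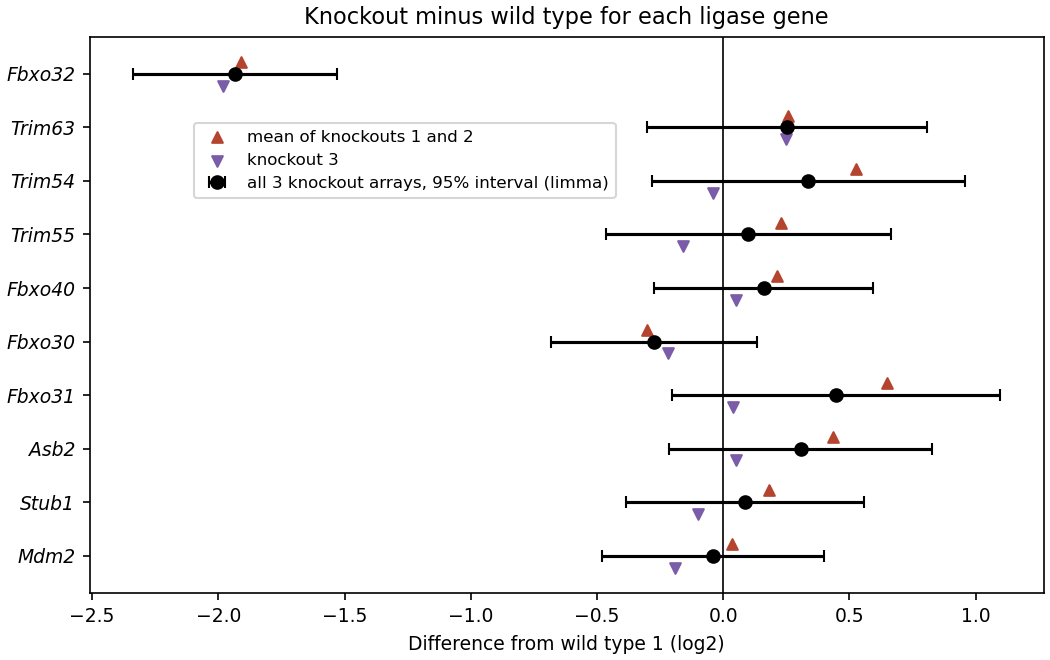
Difference from wild type 1 (log2, horizontal axis) for each ligase gene, with the mean of the 3 knockout arrays and its limma 95% interval in black, the mean of knockouts 1 and 2 as red upward triangles and knockout 3 as purple downward triangles. Only the interval of Fbxo32, from -2.34 to -1.53, lies clear of 0, and for Trim54, Fbxo31 and Asb2 knockout 3 sits close to 0 while knockouts 1 and 2 average 0.53, 0.65 and 0.44.

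The upstream windows of ligase genes whose readings are described next show how differently these genes begin. RefSeq windows on GRCm38.p6 matched 8 of the 10 genes (all but Fbxo32 and Trim55), some with more than 1 start site. The 250 bases before the start are printed 5′ to 3′ on the strand of the gene for the muscle ligases Trim63, Trim54, Fbxo40 and Asb2, the last 2 at the first start site listed. They lie at chr4:134314870-134315119 (plus strand), chr5:31116362-31116611 (plus strand), chr16:36990468-36990717 (minus strand) and chr12:103356002-103356251 (minus strand). Capitals mark letter matches on either strand to the E-box (CANNTG), which muscle bHLH factors such as MyoD bind, the FoxO core (GTAAACA), the TATA box (TATAAA) and the MEF2 motif. No matches overlapped in these windows.
Trim63: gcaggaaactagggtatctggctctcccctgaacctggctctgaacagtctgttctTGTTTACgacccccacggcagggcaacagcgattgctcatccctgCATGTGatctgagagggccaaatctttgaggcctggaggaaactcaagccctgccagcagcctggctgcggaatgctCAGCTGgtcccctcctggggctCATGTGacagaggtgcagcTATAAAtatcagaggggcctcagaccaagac
Trim54: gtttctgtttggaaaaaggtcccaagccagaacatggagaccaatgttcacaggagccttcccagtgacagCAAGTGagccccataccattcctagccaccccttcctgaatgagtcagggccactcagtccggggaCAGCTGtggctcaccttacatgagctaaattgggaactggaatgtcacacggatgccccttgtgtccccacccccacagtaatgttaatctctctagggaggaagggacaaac
Fbxo40: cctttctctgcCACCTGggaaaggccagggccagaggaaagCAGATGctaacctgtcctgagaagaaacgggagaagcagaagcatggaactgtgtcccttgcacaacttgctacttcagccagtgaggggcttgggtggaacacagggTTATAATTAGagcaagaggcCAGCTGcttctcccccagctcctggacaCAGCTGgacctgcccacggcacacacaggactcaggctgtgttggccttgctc
Asb2: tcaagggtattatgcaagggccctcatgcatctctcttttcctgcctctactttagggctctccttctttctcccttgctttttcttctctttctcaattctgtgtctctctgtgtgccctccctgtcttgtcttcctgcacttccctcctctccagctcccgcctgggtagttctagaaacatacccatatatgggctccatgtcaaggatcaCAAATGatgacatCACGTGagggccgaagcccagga
The Trim63 window held a FoxO core that begins 194 bases before the start and a TATA box that begins 31 bases before it. A FoxO core stood in 3.17% of all 32851 windows of this length and a TATA box in 12.4%. The MEF2 match of Fbxo40 began 101 bases before the start, and 2.92% of all windows held one. E-boxes numbered 3 in the window of Trim63, 2 in Trim54, 4 in Fbxo40 and 2 in Asb2, but 66.2% of all windows held at least 1. Among the windows not printed, that of Mdm2 held a FoxO core, which begins 153 bases before the start, and those of Fbxo30, Fbxo31 and the second start of Asb2 held no match to any of the 4 motifs. These are letter matches and not binding sites, and no binding was measured.

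The MuRF genes encode a family of RING-finger proteins at the sarcomere. Trim63 (MuRF1, probe set 10508953) read 8.81, 9.34 and 9.07 in knockouts 1, 2 and 3, against 8.82 in wild type 1. Knockout 1 read level with the wild type array and knockout 2 gave the highest reading, so the groups overlapped. The knockout mean of 9.07 ± 0.27 (SD, n = 3) gave a difference of 0.25 (SE 0.23, limma adjusted p = 0.957), which was 0.12 without knockout 2 and 0.39 without knockout 1.

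Trim54 (MuRF3, probe set 10520706), which is known for binding microtubules and the Z-disc, read 10, 10.01 and 9.44, against 9.48 in wild type 1. Knockouts 1 and 2 lay above both other arrays and knockout 3 just under the wild type. The log2 fold change was 0.34 (SE 0.26, limma adjusted p = 0.945), 0.53 for the mean of knockouts 1 and 2 and -0.04 for knockout 3. Trim55 (MuRF2, probe set 10490972), which is linked to titin signalling, read 8.48, 8.80 and 8.25, against 8.41 in wild type 1. Its mean difference of 0.10 (SE 0.24, limma adjusted p = 0.996) rested on knockout 2, without which it was -0.045. The 3 MuRF genes therefore gave no common order of the arrays, since Trim63 in knockout 3 read above wild type 1 and the other MuRF genes below it.

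Of the other F-box genes, Fbxo31 read farthest above wild type and Fbxo30 below it. Fbxo31, whose protein is known to act on cyclin D1 and MDM2, had 2 probe sets. The brighter one (10582231) read 8.75, 8.67 and 8.10 in the knockouts, against 8.06 in wild type 1. Knockout 3 was within 0.04 of the wild type while knockouts 1 and 2 averaged 0.65 above it. The log2 fold change was 0.45 (SE 0.28, limma adjusted p = 0.923). The dimmer probe set (10582229) read 8.11, 7.57 and 7.39, against 7.09 in wild type 1, with a difference of 0.60, so both put every knockout array above the wild type array.

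Fbxo30 (MUSA1, probe set 10361748), a ligase induced in denervated muscle and held down by BMP signalling, read 8.16, 8.24 and 8.28, against 8.50 in wild type 1. It was the 1 gene besides Fbxo32 with all 3 knockout arrays below wild type 1 (2 of 10 ligases, beside 24.6% of all genes tested). The knockout arrays were close together, with a mean of 8.23 ± 0.06 (SD, n = 3). The difference from wild type 1 was -0.27 (SE 0.17, limma adjusted p = 0.924), and -0.22 for knockout 3 alone. Fbxo40 (probe set 10439357), a muscle F-box protein known to act on IRS1 in insulin and IGF1 signalling, read 9.77, 9.64 and 9.54, against 9.49 in wild type 1. The difference was small in all 3 arrays, at a mean of 0.16 (SE 0.18, limma adjusted p = 0.976), 0.10 without knockout 1 and 0.05 for knockout 3.

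Asb2, the substrate-binding subunit of a Cul5 ligase known to act on filamins, also read above wild type 1 on every knockout array. Probe set 10402325 read 11.38, 11.25 and 10.93, against 10.88 in wild type 1. Knockouts 1 and 2 stood apart from knockout 3, which lay within 0.05 of wild type 1. The log2 fold change was 0.31 (SE 0.22, limma adjusted p = 0.945). Asb2, Fbxo31 and Fbxo40 made 3 of 10 ligases with all knockout arrays above wild type 1, beside 23.9% of all genes tested. The remaining 5 had knockout arrays on both sides of wild type 1, as did 51.5% of all genes.

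The broadly expressed ligases had small differences. Stub1 (CHIP, probe set 10449051), which works with heat shock proteins on misfolded clients, read 9.69, 9.57 and 9.35, against 9.45 in wild type 1 (log2 fold change 0.09, SE 0.20, limma adjusted p = 0.996). Mdm2 (probe set 10372668), the ligase of p53, read 8.07, 8.06 and 7.84, against 8.03 in wild type 1 (log2 fold change -0.04, SE 0.19, limma adjusted p = 0.996). Stub1 ran from 0.01 without knockout 1 to 0.18 without knockout 3, and Mdm2 from -0.08 to 0.035 without the same arrays. In both genes wild type 1 lay between knockout 3 and the other knockouts. The upper ends of their 95% intervals were 1.47-fold and 1.32-fold, and the lower ends 0.766-fold and 0.716-fold.

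A shared order of the arrays ran through 7 of the 9 other ligases: knockouts 1 and 2 both read above knockout 3 and wild type 1. These were Trim54, Trim55, Fbxo40, Fbxo31, Asb2, Stub1 and Mdm2, and for Mdm2 the margin over wild type 1 was only 0.03. The order was noticed after the values were seen and was not tested, and 22.5% of all genes tested had it. It was also found in 13 of 29 other ligases of striated muscle and 13 of 29 genes of substrates or partners. Among regulators of the ligase genes 9 of 22 had it, as did 5 of 18 cullin-RING and neddylation genes and 3 of 18 E1 and E2 genes. The median difference of the 9 ligases from wild type 1 was 0.23 for the mean of knockouts 1 and 2 and -0.04 for knockout 3, against 0.01 and -0.01 over all genes. Their root mean square difference was 0.146 between knockout 3 and wild type 1, while knockouts 1 and 2 differed from wild type 1 by 0.373 and 0.383. Over all genes tested the same 3 values were 0.281, 0.388 and 0.356. The sum of the 9 linear levels was 7179, 7095 and 5699 in knockouts 1, 2 and 3, against 5700 in wild type 1.

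Cell type markers varied over the same arrays. The summed linear level of the 9 cardiomyocyte markers was 85521, 87868 and 81522 in the knockouts, against 82407 in wild type 1, and 7 of the 9 had the order in which knockouts 1 and 2 read above the other arrays. All 6 fibroblast markers were tested, and their sum was 7368, 10199 and 18522, against 12462 in wild type 1. They did not move together. Postn read 8.85, 9.92 and 11.69, against 10.66 in wild type 1, but Dcn read 12.02, 12.36 and 12.28, against 11.94. Of the 6, 1 lay above and 1 below wild type 1 on every knockout array (beside 23.9% and 24.6% of all genes tested). The 8 macrophage markers lay below wild type 1 on every knockout array (beside 24.6% of all genes tested). Their sums were 1208, 1260 and 1670, against 2795 in wild type 1. At an unadjusted limma p under 0.05, 7 of the 8 were lower (beside 4.05% of all genes tested), and 0 passed the adjusted threshold. The 5 endothelial markers summed to 2386, 2362 and 3140, against 2188 in wild type 1. The part of cell makeup in the readings of the ligases was not tested. With the level of Xist (high or low) as a covariate in limma, the median of the 9 ligases was -0.04, which rests on knockout 3 and wild type 1. In whole-heart RNA fewer cells of a type and less RNA per cell cannot be told apart.

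**Figure D3:**
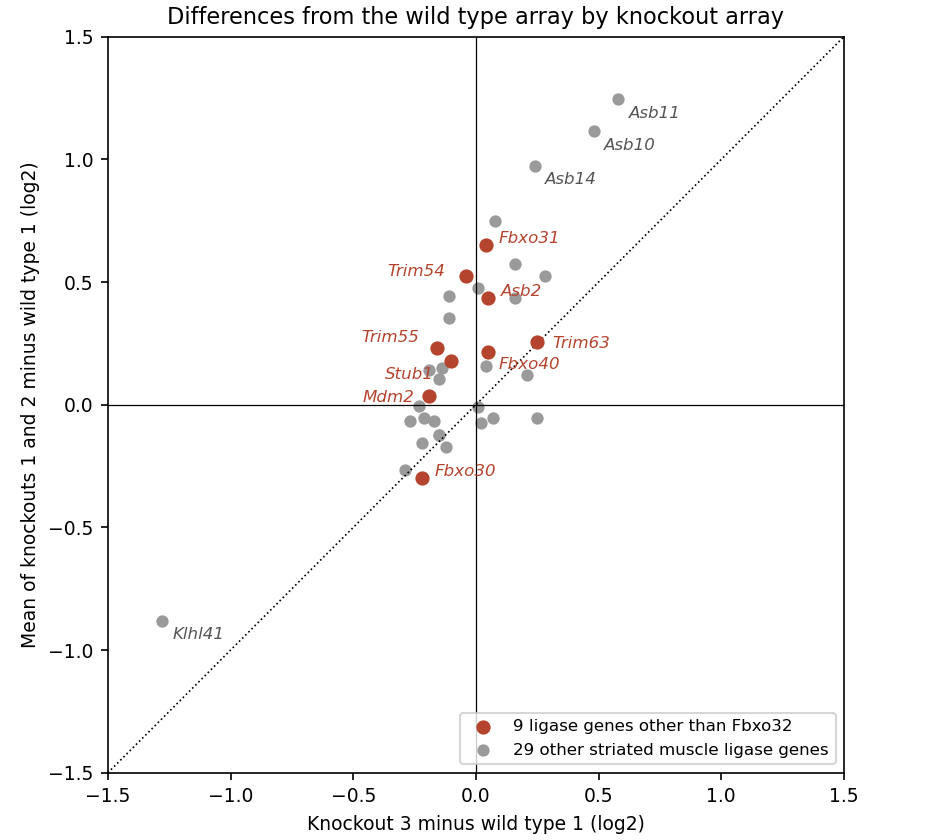
Difference of knockout 3 from wild type 1 (horizontal, log2) against that of the mean of knockouts 1 and 2 (vertical, log2) for the 9 ligase genes other than Fbxo32 (red) and 29 other striated muscle ligase genes (grey), with equality as a dotted line. Trim54, Fbxo31 and Asb2 lie near 0 on the horizontal axis and at 0.53, 0.65 and 0.44 on the vertical axis, and Trim63 lies on the line. Both axes subtract the same wild type array.

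Of 29 other ligases of striated muscle none passed the limma test (0 higher, 0 lower). Their median log2 fold change was 0.03, and 9 lay above and 6 below wild type 1 on every knockout array, near the 23.9% and 24.6% of all genes tested. At an unadjusted limma p under 0.05, 2 were higher and 1 lower (beside 1.68% and 4.05% of all genes tested). Klhl41, a kelch adaptor of a Cul3 ligase that stabilises thin filament proteins, read 9.28, 9.54 and 9.01, against 10.29 in wild type 1. All 3 knockout arrays were lower, knockout 3 the most (log2 fold change -1.01, SE 0.23, limma adjusted p = 0.459).

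Of 8 relatives of Asb2 on that list, 4 read above wild type 1 on every knockout array and 1 below it on every one (beside 23.9% and 24.6% of all genes tested), with log2 fold changes from -0.13 (Asb12) to 1.02 (Asb11). Asb11 read 9.71, 10.04 and 9.21, against 8.63 in wild type 1 (log2 fold change 1.02, SE 0.31, limma adjusted p = 0.603). Asb10 read 8.15, 7.88 and 7.38, against 6.90 in wild type 1 (log2 fold change 0.90, SE 0.29, limma adjusted p = 0.678). Asb14 read 8.82, 8.81 and 8.08, against 7.84 in wild type 1 (log2 fold change 0.73, SE 0.31, limma adjusted p = 0.874). In Asb11, Asb10 and Asb14 knockout 3 lay between wild type 1 and the other knockouts, as it did in Asb2.

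Genes of the cullin-RING machinery, which includes the SCF adaptor and scaffold, gave no call. Of 18 cullin-RING scaffold and neddylation genes 0 were called by limma in either direction, with a median log2 fold change of -0.07. An unadjusted limma p under 0.05 was found for 0 of them, beside 5.73% of all genes tested. The SCF scaffold Cul1 and adaptor Skp1 stood at 0.07 and 0.03, and Cul5, the scaffold that Asb2 uses, at 0.00. The smallest p belonged to Cand1, an exchange factor that frees cullins for new F-box proteins, at -0.39 (SE 0.18, limma adjusted p = 0.880). It read 8.23, 8.29 and 8.38, against 8.69 in wild type 1. Cul4a stood at 0.34, the elongin C gene Eloc at -0.25 and Cul4b at -0.35.

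Among 18 genes of ubiquitin activation (E1) and conjugation (E2), 10 lay below and 1 above wild type 1 on every knockout array (beside 24.6% and 23.9% of all genes tested), and 0 were called by limma. The median log2 fold change was -0.19, and 1 gene was lower at an unadjusted limma p under 0.05 (beside 4.05% of all genes tested). This was Ube2v2, a partner of the E2 Ube2n, which read 7.09, 7.31 and 7.08, against 7.69 in wild type 1 (log2 fold change -0.53, SE 0.19, limma adjusted p = 0.737). Uba6 stood at -0.43, Ube2k at -0.36 and Ube2d3, of a family of E2 enzymes that many RING ligases use, at -0.31. For this list knockout 3 did not stand apart, with a median difference from wild type 1 of -0.21, and -0.18 for the mean of knockouts 1 and 2.

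Genes of proteins reported as substrates or partners of the 10 ligases showed no call among 29 tested (0 higher and 0 lower by limma), with a median log2 fold change of 0.09. Transcript levels say nothing on how fast their proteins are broken down. At an unadjusted limma p under 0.05, 2 were lower and 0 higher (beside 4.05% and 1.68% of all genes tested). Both encode filamins, actin crosslinkers that Asb2 is known to target. Flnc, the muscle filamin, read 10.68, 10.63 and 10.66, against 11.64 in wild type 1. The 3 knockout readings nearly coincided (log2 fold change -0.98, SE 0.17, limma adjusted p = 0.333). Flna read 9.06, 9.08 and 9.51, against 9.84 in wild type 1 (log2 fold change -0.62, SE 0.23, limma adjusted p = 0.777).

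Also by smallest p, Ccnd1, the cyclin D1 gene, stood at -0.43, with 8.98, 9.18 and 9.23 in the knockouts, against 9.56 in wild type 1. Irs1, whose protein Fbxo40 is known to target, stood at 0.36, with 8.08, 8.03 and 7.96 in the knockouts, against 7.66 in wild type 1. Neither passed the limma test (adjusted p = 0.876 and 0.890).

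Among regulators known to act on the ligase genes, FoxO factors and Klf15 had the smallest p. Of 22 tested genes 0 were called by limma in either direction, and 0 had an unadjusted p under 0.05 (beside 5.73% of all genes tested). On every knockout array 9 lay above and 2 below wild type 1 (beside 23.9% and 24.6% of all genes tested). Foxo4 read 7.51, 7.47 and 7.18, against 6.98 in wild type 1 (log2 fold change 0.41, SE 0.20, limma adjusted p = 0.922). Foxo3 read 8.86, 8.60 and 8.32, against 8.18 in wild type 1 (log2 fold change 0.41, SE 0.24, limma adjusted p = 0.923). Klf15, a glucocorticoid-induced factor known to drive Fbxo32 and Trim63 in skeletal muscle, read 8.89, 8.48 and 8.07, against 8.04 in wild type 1. Foxo1 stood at 0.22. In Foxo4, Foxo3 and Klf15 knockout 3 gave the lowest knockout reading, and in Foxo1 the highest, at 7.21.

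Genes next to Fbxo32 on the chromosome did not share its reading. The 5 tested genes on each side had log2 fold changes from -0.61 (Atad2) to 0.39 (Tmem65). An unadjusted limma p under 0.05 was found for 0 of the 10, beside 5.73% of all genes tested. The nearest on one side was Klhl38, a kelch gene of muscle, which read 7.35, 7.54 and 7.17, against 7.01 in wild type 1 (log2 fold change 0.34, SE 0.20, limma adjusted p = 0.923). The nearest on the other side, Wdyhv1, stood at 0.23. Atad2, a gene tied to cell division, read 5.46, 5.65 and 6.72, against 6.55 in wild type 1, so its difference came from knockouts 1 and 2.

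**Figure D4:**
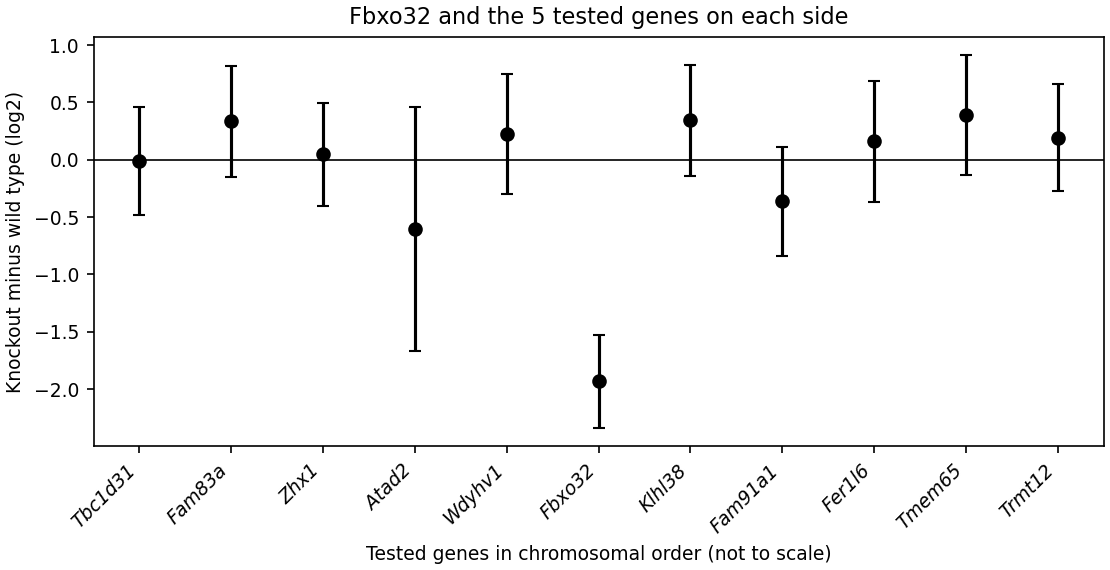
Knockout minus wild type (log2, vertical axis) with limma 95% intervals for Fbxo32 and the 5 tested genes on each side, in chromosomal order and not to scale. Fbxo32 stands at -1.93, and the intervals of all 10 neighbours include 0.

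The genes whose profile over the 4 arrays was nearest to that of Fbxo32 were known from myeloid cells and inflammation. Likeness was the Euclidean distance between mean-centred log2 profiles, and over 4 arrays it mostly finds genes with 1 high wild type reading of like size. With genes known only by an accession left out (1 lay this near), the nearest were Saa3, an acute-phase serum amyloid (distance 0.186), the C-type lectin gene Clec4d (0.253), the arginase gene Arg1 (0.257) and the chemokine genes Ccl9 (0.307) and Ccl6 (0.381). Saa3 read 5.14, 5.11 and 5.01, against 6.81 in wild type 1, and Ccl6 read 7.84, 7.86 and 7.80, against 9.33 in wild type 1. The nearest ligase was Fbxo30, at a distance of 1.45, and the other ligases lay between 1.64 and 2.11.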

How the data were processed

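Total RNA from 4 mouse hearts was hybridised to Affymetrix Mouse Gene ST arrays. The authors deposited log2 values, produced by RMA in Affymetrix Expression Console, as the submitters' processing notes record. RMA corrects background, quantile-normalizes the arrays and summarises each probe set. Versions, array build and scanner intensities were not used here. It removes shifts shared by most genes and compresses dim ones.

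Of 35556 probe sets, 21789 had 1 symbol in the platform annotation. The probe set with the highest mean was kept per gene, and means under the 25th percentile (4.71) were left out, leaving 14914 genes. limma 3.58.1 in R 4.3.3 (lmFit, eBayes, two-sided) compared knockout with wild type on 2 residual and 5.04 prior degrees of freedom. The method was tested on simulated data with normal noise of the same spread on wild type and knockout arrays. That simulation cannot check whether wild type 1 varies like the knockouts. The number of arrays limits the precision.

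Named are the 10 ligases, 5 neighbours of Fbxo32 on each side (by extremes and nearest), 4 genes of smallest p per list and the 5 profiles nearest to Fbxo32. Predicted genes and genes known only by an accession were skipped. Genes picked after their values were seen are Cul1, Skp1, Cul5, Asb12 and Hmox1. Cell type markers were likewise named for their readings and not by p. Members and lists were chosen with earlier results of these data known.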

Additional observations from a re-analysis of the deposited data

How the results depend on the processing

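Under the 11 alternatives that give a test, Fbxo32 was the 1 ligase whose call differed. It passed the limma test with an intensity trend (log2 fold change -1.93, adjusted p = 0.0325) and with a robust prior (log2 fold change -1.93, adjusted p = 0.0194). Both settings put the count of ligases called at 1, beside 0 in the main comparison and under the other 9 tested settings. The filter at the 50th percentile left Fbxo32 out. Its log2 fold change without 1 knockout lay between -1.96 and -1.91. Without 1 knockout, Trim54 ran from 0.24 to 0.53, Fbxo31 from 0.33 to 0.65, Asb2 from 0.21 to 0.44, Trim55 from -0.045 to 0.23 and Mdm2 from -0.08 to 0.035. With a covariate for Xist level, Trim54, Trim55 and Stub1 turned to -0.04, -0.16 and -0.10, which equal knockout 3 against wild type 1 alone (-0.04, -0.16 and -0.10), and the median of the 9 ligases other than Fbxo32 was -0.04. The cause was not tested. The order in which knockouts 1 and 2 read above the other arrays also counted 7 ligases with quantile normalization anew and with centred arrays, both chosen for this count after seeing the data. The other 2 such alternatives (filter and probe set rule) leave the levels of all 9 ligases, or of all but Fbxo31, as they were. The count of all genes called by limma was 1 in the main comparison, 0 with quantile normalization anew (874 at an unadjusted p under 0.05), 0 without the filter (1045), 2 with the filter at the 50th percentile, 7 with the trend, 9 with the robust prior, 0 with the Xist covariate (684) and 0 without any 1 knockout (427 to 1577). No paired analysis was possible because there is 1 wild type array and the labels give no pairs.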
